A study of Mus musculus with 22 samples.

Results

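The hippocampus was compared with the cerebral cortex in the 5 wild-type (WT) mice of the series. The members are the 10 WT arrays among 22 arrays in all, 5 of hippocampus and 5 of cortex. Each WT animal gave 1 array of each region, and the arrays were paired by the animal number in their titles (60, 62, 65, 95 and 98). The WT animals were females of 8 to 10 weeks, littermates of Ts1Cje mice, from a line in which Ts1Cje males had been crossed to C57Bl/6J females over generations. The labels name no engineered allele and no treatment for them. The other 12 arrays are cortex and hippocampus of 6 Ts1Cje females of the same age, which carry an additional copy of a chromosome segment as a model of Down syndrome. The study asked what that segment changes in each region, and the WT arrays were its controls. Total RNA was isolated from frozen dissected tissue with the NucleoSpin RNA L kit for cortex and the NucleoSpin RNA II kit for hippocampus, and was used where its integrity number was above 9. It was hybridised to Affymetrix mouse gene ST arrays, which give 1 log2 signal per gene.

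The hippocampus is built from a few neuron classes in series: granule neurons of the dentate gyrus project to pyramidal neurons of CA3, which project to CA1, with the small field CA2 between them. The neocortex is layered, with neurons of the upper layers connecting cortical areas and neurons of the deep layers projecting to the striatum, the thalamus and the brainstem. The dissected hippocampus borders the ventricles, which hold the choroid plexus and are lined by ependyma, and the cortex lies over the striatum. Genes that mark these cells, their transcription factors, receptors and channels are described below in that order.

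Signals differed in scale between the regions before any gene was compared. The array medians were 7.53 to 7.6 in WT cortex and 6.93 to 6.95 in WT hippocampus, so each array was centred on its own median, and a level of 0 below is the level of the median feature of that array. A WT array shared exactly equal values with another array of its own region at 1.99% to 9.17% of features, and with an array of the other region at no more than 0.0424%. Region, extraction kit and any normalization made per region therefore cannot be told apart. The title, the description and the genotype label of animal 60 all say WT, but its description numbers it 61, a number that a Ts1Cje animal of the series also has. The cortex array of animal 60 had the narrowest spread, an SD of 1.86 over features against up to 2.21 in WT cortex. In that animal the median regional difference ran from -0.45 among genes of bin 2 to 0.21 among those of bin 9, with genes in 10 equal bins from dim to bright. Across the 10 bins, the medians of the 4 other animals stayed between -0.077 and 0.066.

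Of the 20239 genes tested, 6090 (30.1%) passed an adjusted p of 0.05 in limma with the animal as a block. In hippocampus 2746 of these were higher (13.6% of genes tested) and 3344 were lower (16.5%). The median difference of all genes was -0.021 on the log2 scale. Without animal 60 the number called rose to 10889, with 4960 higher and 5929 lower. It fell without any 1 of the others, to 3912 without animal 62, 3712 without 65, 4008 without 95 and 3844 without 98. Genes called higher then numbered 1787, 1674, 1761 and 1720, and genes called lower 2125, 2038, 2247 and 2124. Every list count below with an animal left out is to be read beside these. With each array centred on its 75th percentile in place of its median, 2915 genes were higher and 2667 lower, so the larger number on the lower side rested on the centring. Without any centring the median of all genes moved to -0.64 and 18741 genes were lower, so every direction below is relative to the median gene. In that setting a gene higher in hippocampus by less than about that shift was no longer higher.

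The count of large differences moved less with the animals left out. Called genes with at least a 2-fold difference, a log2 difference of 1, numbered 389 (1.92%), with 184 higher in hippocampus (0.909%) and 205 lower (1.01%). Of these, 387 had the same sign in all 5 animals, the exceptions being Scgn and Trbv4. The arrays of both regions did not overlap for 377 of them, against 21.8% of all genes tested. Shared sign and lack of overlap largely follow from choosing these genes on the same arrays. Leaving out 1 animal gave 385 to 404 such genes, of which 355 to 380 were among the 389, all in the same direction. Genes just outside the 2-fold line were Apol10a at 0.999 and Camkk2 at -0.997, and just inside it stood Crhr1 at -1.002 and Rassf6 at -1.003. Of the 389, 134 belonged to at least 1 of the 36 gene lists used here and 255 to none. With 5 pairs an exact paired permutation test could not go below p = 0.0625, so single genes are given with the limma fit across all genes.

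**Figure D1:**
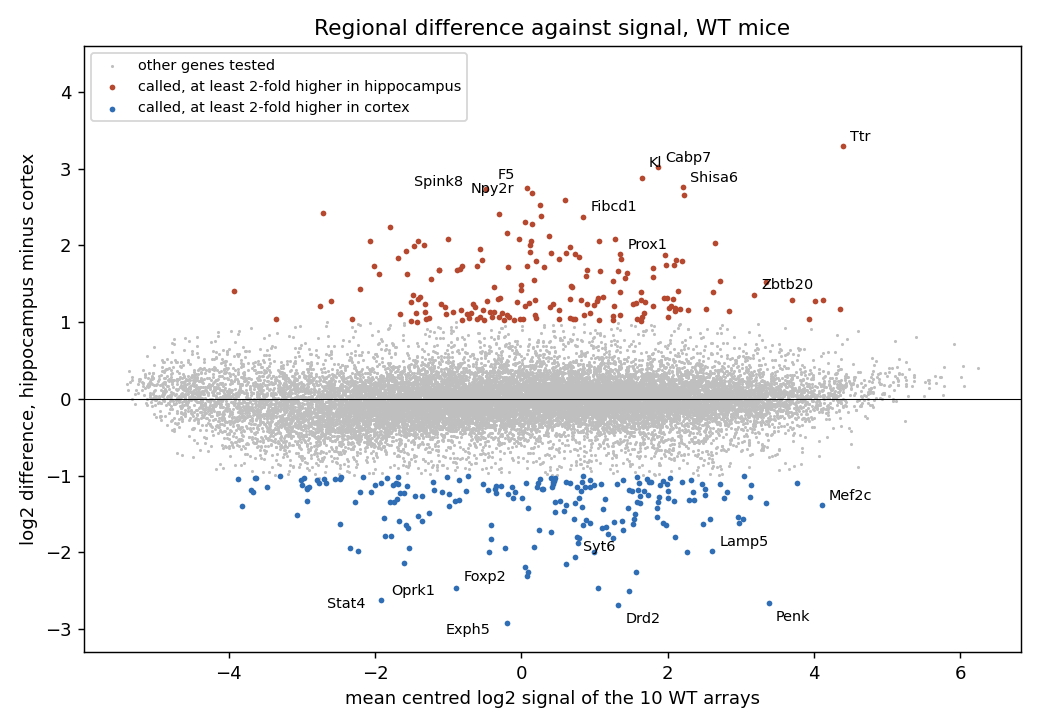
Difference between hippocampus and cortex (vertical axis, log2) against the mean centred log2 signal of the 10 WT arrays (horizontal axis) for each of the 20239 genes; red and blue points are the called genes at least 2-fold higher in hippocampus or in cortex. Ttr lies highest at 3.3 and Exph5 lowest at -2.92, and large differences occur from dim to bright genes.

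Genes of hippocampal principal neurons were mostly higher in hippocampus. In the combined lists of granule, mossy, CA1, CA2 and CA3 neurons, 38 of 57 measured genes were called higher and 5 lower. Of all genes tested 13.6% were called higher and 16.5% lower, the shares to set beside each list count below. The dentate granule list had 11 higher and 1 lower of 17, with a median log2 difference of 0.64. Lower calls numbered 2 without animal 60. In bulk tissue, fewer cells of a type and less RNA per cell cannot be told apart. Values per array are centred log2 levels in the order of animals 60, 62, 65, 95 and 98. Each difference is hippocampus minus cortex on the log2 scale, with its SE and adjusted p from the limma fit. That SE uses a variance moderated across all genes, so it is not the plain SE of the 5 animals' differences.

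Prox1 encodes the homeodomain factor that marks granule neurons. It was at -0.084, 0.56, 0.49, 0.51 and 0.59 in the cortex arrays and 2.12, 2.27, 2.35, 2.4 and 2.32 in the hippocampus arrays. Every hippocampus array stood above every cortex array, and the cortex array of animal 60 was the lowest of its group. The difference was 1.88 ± 0.083 (SE, adjusted p = 5.11e-05). Lct, the lactase gene, is a strong marker of the same neurons, with levels of -0.31, -1.34, -1.1, -1.13 and -1.15 in cortex and 1.29, 1.43, 1.59, 1.67 and 1.63 in hippocampus. Here the groups did not overlap either, although the cortex array of animal 60 was highest. The difference was 2.53 ± 0.185 (SE, adjusted p = 0.000202). Dsp, which encodes the desmosomal protein desmoplakin, had a difference of 2.4 ± 0.192 (SE, adjusted p = 0.000287). Il16, an interleukin gene, had a difference of 2.31 ± 0.147 (SE, adjusted p = 0.000128). C1ql2, which encodes a secreted C1q-like protein of mossy fibre synapses, had a difference of 2.06 ± 0.173 (SE, adjusted p = 0.000336). In each of these 3 genes the regions did not overlap. The list's called member on the other side was Sema5b, a semaphorin gene, with a difference of -0.56 ± 0.0502 (SE, adjusted p = 0.000419).

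CA1 genes followed the same direction, with 11 of 12 called higher, 0 lower and a median of 0.56. Lower calls numbered 1 without animal 60. Spink8, a protease inhibitor gene, was at -1.28, -1.98, -1.97, -2.04 and -1.97 in cortex and 0.29, 0.86, 1.01, 1.16 and 1.11 in hippocampus. It lay below the median feature in all cortex arrays and above it in all hippocampus arrays. The difference was 2.73 ± 0.231 (SE, adjusted p = 0.000343). Fibcd1, which encodes an acetyl-group-binding membrane receptor, was at -0.23, -0.52, -0.35, -0.23 and -0.38 in cortex and 1.76, 2.02, 2.11, 2.16 and 2.12 in hippocampus. It was below the median feature in cortex and well above it in hippocampus, and the difference was 2.37 ± 0.0892 (SE, adjusted p = 3.99e-05). Gpr161, an orphan receptor of primary cilia, had a difference of 1.82 ± 0.085 (SE, adjusted p = 5.75e-05).

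The CA3 list had 10 of 13 called higher and 1 lower, with a median of 0.53. Lower calls numbered 2 without animal 60. Iyd, which encodes iodotyrosine deiodinase, was at -1.81, -2.79, -2.58, -2.7 and -2.42 in cortex and -0.50, -0.45, -0.41, -0.60 and -0.41 in hippocampus. It was below the median feature in every array and higher in the hippocampus of each animal, with a difference of 1.99 ± 0.144 (SE, adjusted p = 0.000196). Tspan18, a tetraspanin gene, had a difference of 1.9 ± 0.0717 (SE, adjusted p = 3.99e-05). St18, a zinc finger factor, had a difference of 1.45 ± 0.065 (SE, adjusted p = 5.11e-05). Coch, which encodes the matrix protein cochlin, went the other way and was at 0.84, 1.53, 1.4, 1.47 and 1.4 in cortex and 0.048, 0.24, 0.16, 0.12 and 0.37 in hippocampus. The difference was -1.14 ± 0.0915 (SE, adjusted p = 0.00029).

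CA2 and hilar genes gave smaller and more mixed differences. The CA2 list had 5 higher and 1 lower of 9. Lower calls numbered 0 without animal 65. Amigo2, an adhesion protein gene much used to mark CA2, had a difference of 1.29 ± 0.0797 (SE, adjusted p = 0.000116). Rgs14, a regulator of G protein signalling that limits plasticity in CA2, had a difference of 0.83 ± 0.053 (SE, adjusted p = 0.000128). Pcp4, a calmodulin-binding protein of CA2 and of cortical layer 5, was lower by a small amount, with a difference of -0.28 ± 0.0563 (SE, adjusted p = 0.0103), and was not called without animal 65. Of 6 mossy cell genes 1 was called higher, Csf2rb2, a cytokine receptor gene with a difference of 0.73 ± 0.143 (SE, adjusted p = 0.00959). The 2 called lower were Ajap1 and Drd2, and Drd2 is also a striatal marker. Lower calls numbered 1 without animal 62, 65, 95 or 98.

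Regional transcription factors split in both directions. Of 41 measured, 19 were higher in hippocampus and 12 lower. Zbtb20, a zinc finger repressor needed for the identity of hippocampal pyramidal neurons, was at 2.25, 2.35, 2.6, 2.73 and 2.56 in cortex and 3.77, 3.84, 3.83, 3.87 and 3.97 in hippocampus. It was a bright gene in both regions, its regional values were well apart, and the difference was 1.36 ± 0.075 (SE, adjusted p = 7.92e-05). Nr3c2, the mineralocorticoid receptor, was at 0.34, 1.12, 1.19, 1.27 and 1.22 in cortex and 2.61, 2.95, 3.07, 3.0 and 2.86 in hippocampus. The lowest cortex value was that of animal 60, and the difference was 1.87 ± 0.0957 (SE, adjusted p = 6.79e-05). Lhx9, a LIM homeobox gene, had a difference of 1.81 ± 0.153 (SE, adjusted p = 0.000342).

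Foxp2, a forkhead factor of deep cortical and striatal neurons, was at 0.78, 1.14, 1.31, 1.47 and 1.02 in cortex and -1.04, -0.92, -1.19, -1.12 and -0.95 in hippocampus. It was above the median feature in each cortex array and below it in each hippocampus array, with a difference of -2.19 ± 0.125 (SE, adjusted p = 8.69e-05). Meis2, a homeobox factor of striatal and some cortical neurons, had a difference of -1.53 ± 0.138 (SE, adjusted p = 0.000433). Mef2c, an activity-regulated factor of excitatory neurons, was at 4.65, 5.0, 4.85, 4.71 and 4.77 in cortex and 3.45, 3.46, 3.37, 3.33 and 3.45 in hippocampus. Both regions expressed it brightly, without overlap, and the difference was -1.38 ± 0.0663 (SE, adjusted p = 5.9e-05). Tbr1, a T-box factor of deep layer and other glutamatergic neurons, had a difference of -0.97 ± 0.0688 (SE, adjusted p = 0.000181). Fezf2, which specifies subcortical projection neurons of layer 5, was higher in hippocampus, with levels of 1.5, 2.0, 1.92, 1.83 and 2.04 in cortex and 2.33, 2.47, 2.63, 2.52 and 2.54 in hippocampus. The difference was 0.64 ± 0.0714 (SE, adjusted p = 0.00101), and without centring the difference was 0.022 and not called.

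The cortical neuron lists gave different counts by layer. The list of layers 2 to 4 had 12 of 15 called lower in hippocampus and 2 higher, with a median of -0.93. Higher calls numbered 1 without animal 95 or 98. Layer 5 genes had 6 lower and 8 higher of 17. Layer 6 and 6b genes had 8 lower and 5 higher of 18. The difference between these lists was not tested.

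Lamp5, which encodes a lysosome-associated membrane protein of upper layer and some inhibitory neurons, was at 3.34, 3.86, 3.67, 3.52 and 3.61 in cortex and 1.58, 1.61, 1.58, 1.59 and 1.71 in hippocampus. The cortex arrays were all higher, and the hippocampus values lay close together apart from that of animal 98. The difference was -1.98 ± 0.0791 (SE, adjusted p = 4.29e-05). Cux2, a homeobox factor of the upper layers, had a difference of -1.3 ± 0.0584 (SE, adjusted p = 5.11e-05). Rorb, the nuclear receptor that marks layer 4, was at 2.03, 2.87, 2.6, 2.77 and 2.76 in cortex and 1.11, 1.47, 1.43, 1.57 and 1.45 in hippocampus, again without overlap. The difference was -1.2 ± 0.0775 (SE, adjusted p = 0.000135). Rspo1, a Wnt agonist gene, had a difference of -1.29 ± 0.0856 (SE, adjusted p = 0.000143). The 2 list members called higher in hippocampus were Mdga1, a membrane-anchored adhesion gene with a difference of 1.06 ± 0.0905 (SE, adjusted p = 0.000353), and Scnn1a.

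Among deep layer genes Oprk1, the kappa opioid receptor, had a difference of -2.46 ± 0.152 (SE, adjusted p = 0.000116). Syt6, a synaptotagmin gene of layer 6 neurons that project to the thalamus, was at 1.98, 1.53, 1.72, 2.03 and 1.57 in cortex and -0.11, -0.26, -0.27, -0.39 and -0.40 in hippocampus. All cortex arrays were higher, and the difference was -2.05 ± 0.0922 (SE, adjusted p = 5.11e-05). Rbp4, the retinol-binding protein gene used to mark layer 5, had a difference of -0.80 ± 0.0651 (SE, adjusted p = 0.000304). Crym, which encodes a thyroid hormone-binding protein, was higher in hippocampus, at 1.85, 1.74, 1.98, 2.1 and 1.96 in cortex and 3.32, 3.31, 3.39, 3.32 and 3.29 in hippocampus. Its hippocampus arrays differed little among themselves, with an SD of 0.0383, and the difference was 1.4 ± 0.0662 (SE, adjusted p = 5.82e-05). Hsd11b1, the enzyme that regenerates active glucocorticoid, had a difference of 0.96 ± 0.074 (SE, adjusted p = 0.000246). Bcl6, a transcriptional repressor, had a difference of 0.70 ± 0.0806 (SE, adjusted p = 0.00118).

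**Figure D2:**
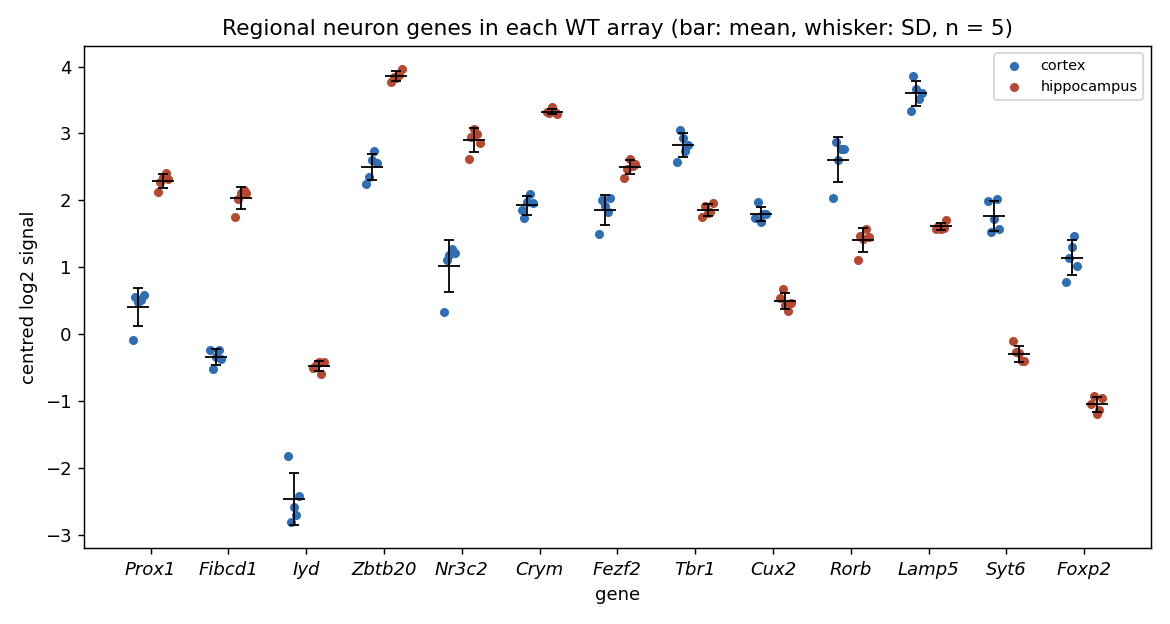
Centred log2 signal (vertical axis) of 13 genes of hippocampal and cortical neurons in each WT array; points are arrays, the black bar is the mean and the whisker the SD of the 5 arrays of a region. The genes from Prox1 to Fezf2 are higher in hippocampus and those from Tbr1 to Foxp2 higher in cortex. The regions do not overlap for any of the 13, against 21.8% of all genes tested, and several of the 13 were chosen on these arrays.

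Some of the largest differences were in genes outside the marker lists of neurons. Cabp7, which encodes a calcium-binding protein of the calmodulin family, was at 0.33, 0.31, 0.40, 0.33 and 0.41 in cortex and 3.24, 3.26, 3.36, 3.56 and 3.46 in hippocampus. The hippocampus arrays were higher by a mean of 8.12-fold, and the difference was 3.02 ± 0.0648 (SE, adjusted p = 7.66e-06). Chst9, a sulfotransferase gene, had a difference of 2.43 ± 0.0949 (SE, adjusted p = 4.25e-05). On the cortical side Exph5, whose product binds the vesicle GTPase Rab27, was at 0.85, 1.59, 1.23, 1.24 and 1.45 in cortex and -1.53, -1.41, -1.86, -1.84 and -1.61 in hippocampus. It was above the median feature in every cortex array and well below it in every hippocampus array, a mean 7.56-fold difference. The difference was -2.92 ± 0.115 (SE, adjusted p = 4.29e-05). Stat4, a cytokine-signalling factor, had a difference of -2.63 ± 0.102 (SE, adjusted p = 4.25e-05). Myl4, a myosin light chain gene, had a difference of -2.51 ± 0.109 (SE, adjusted p = 5.11e-05). The same direction held in all 5 animals for each gene of this paragraph. Abi3bp, an extracellular matrix gene, had a difference of -2.26 ± 0.125 (SE, adjusted p = 8.15e-05). Rasgef1c, an exchange factor for Ras, had a difference of -2.15 ± 0.0619 (SE, adjusted p = 2.29e-05).

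Glutamate receptor genes differed gene by gene, with 8 called higher and 15 lower of 37. Shisa6, an auxiliary subunit that keeps AMPA receptors at synapses, was at 0.48, 0.73, 0.98, 0.98 and 0.99 in cortex and 3.39, 3.55, 3.7, 3.65 and 3.65 in hippocampus. The regions lay far apart, and the difference was 2.76 ± 0.0595 (SE, adjusted p = 7.66e-06). Grik4, a high-affinity kainate receptor subunit of CA3, had a difference of 1.3 ± 0.0622 (SE, adjusted p = 5.85e-05). Cnih2, another AMPA receptor auxiliary gene, had a difference of 0.88 ± 0.0498 (SE, adjusted p = 8.43e-05). The metabotropic receptor genes Grm8 and Grm3 were lower. Grm8 had a difference of -1.1 ± 0.0581 (SE, adjusted p = 7.15e-05), and Grm3 had a difference of -0.85 ± 0.068 (SE, adjusted p = 0.00029). Gria4, an AMPA receptor subunit, had a difference of -0.83 ± 0.104 (SE, adjusted p = 0.00166).

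GABA receptor genes were as mixed, with 5 higher and 5 lower of 17. Higher calls numbered 3 without animal 62, 65, 95 or 98, while lower calls numbered 8 without animal 60. Gabra5, the alpha subunit of extrasynaptic receptors that are abundant in hippocampus, was at 3.04, 3.53, 3.55, 3.65 and 3.63 in cortex and 4.73, 4.79, 4.83, 4.8 and 4.73 in hippocampus. The cortex value of animal 60 was the lowest of its group, the groups did not overlap, and the difference was 1.29 ± 0.0927 (SE, adjusted p = 0.000186). Gabrd, the delta subunit of extrasynaptic receptors, had a difference of -1.19 ± 0.0486 (SE, adjusted p = 4.68e-05). Gabra3, another alpha subunit, had a difference of -0.87 ± 0.0669 (SE, adjusted p = 0.000246).

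Potassium channel genes were called lower for 36 and higher for 9 of 66, against 16.5% and 13.6% of all genes. Their median was -0.23. Lower calls numbered 23 without animal 65 or 98. Kcnh5, an ether-a-go-go channel, was at 2.93, 3.43, 3.29, 3.33 and 3.33 in cortex and 1.02, 1.33, 1.22, 1.31 and 1.44 in hippocampus, and the difference was -2.0 ± 0.0578 (SE, adjusted p = 2.29e-05). Every cortex value exceeded every hippocampus value. Dpp10, an auxiliary subunit of A-type channels, had a difference of -1.62 ± 0.107 (SE, adjusted p = 0.000143). Kcnt1, a sodium-activated channel, had a difference of -1.34 ± 0.0535 (SE, adjusted p = 4.29e-05). Kcng2, a modifier subunit of Kv2 channels, had the largest difference towards hippocampus among the list's called members, with a difference of 1.53 ± 0.0506 (SE, adjusted p = 2.61e-05). Among calcium and sodium channels 11 of 27 were lower and 5 higher. Lower calls numbered 7 without animal 62, 65, 95 or 98. Trpc4, a receptor-operated cation channel, had a difference of 1.31 ± 0.0667 (SE, adjusted p = 6.74e-05). Cacnb4, a beta subunit of calcium channels, had a difference of -0.74 ± 0.0615 (SE, adjusted p = 0.000324).

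Receptors for transmitters other than glutamate and GABA, and for steroids, gave 18 higher and 26 lower of 63. Npy2r, the presynaptic neuropeptide Y receptor, was at -1.98, -1.24, -0.70, -1.21 and -0.84 in cortex and 1.34, 1.41, 1.61, 1.49 and 1.59 in hippocampus. The regions did not overlap, and the difference was 2.68 ± 0.142 (SE, adjusted p = 7.15e-05). Htr5b, a serotonin receptor gene, had a difference of 1.71 ± 0.0738 (SE, adjusted p = 5.11e-05). Cckbr, the cholecystokinin receptor of brain, was at 3.07, 3.09, 2.96, 2.86 and 3.02 in cortex and 1.39, 1.21, 1.08, 1.21 and 1.1 in hippocampus, with every cortex array higher. The difference was -1.8 ± 0.0642 (SE, adjusted p = 3.6e-05). Among neuropeptides 4 were higher and 12 lower of 26. Higher calls numbered 2 without animal 65, 95 or 98. Grp, gastrin-releasing peptide, had a difference of 1.7 ± 0.112 (SE, adjusted p = 0.000143), and Adcyap1, the precursor of PACAP, had a difference of -1.2 ± 0.157 (SE, adjusted p = 0.00191).

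Genes of protein kinase C and cyclic nucleotide signalling were lower for 18 and higher for 6 of 34, with a median of -0.27. Several of these, among them Pde10a, a phosphodiesterase with a difference of -1.62 ± 0.102 (SE, adjusted p = 0.000122), are abundant in striatal neurons. Rgs4, which shortens G protein signals, was at 3.42, 4.09, 4.0, 3.8 and 3.72 in cortex and 2.12, 2.29, 2.25, 2.32 and 2.25 in hippocampus. It was bright and higher in every cortex array, with a difference of -1.56 ± 0.087 (SE, adjusted p = 8.17e-05). Calcium-binding proteins divided evenly, at 12 higher and 13 lower of 37. The copines, proteins that bind membranes when calcium rises, split within the family. Cpne7 had a difference of 1.8 ± 0.0888 (SE, adjusted p = 6.49e-05), while Cpne9 had a difference of -1.7 ± 0.0849 (SE, adjusted p = 6.65e-05) and Cpne5 had a difference of -1.63 ± 0.0825 (SE, adjusted p = 6.74e-05).

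Adhesion genes were called lower in hippocampus for 31 and higher for 13 of 59, with a median of -0.25. Cdh7, a cadherin gene, had a difference of -1.58 ± 0.164 (SE, adjusted p = 0.000755). Cntn6, a contactin gene, had a difference of -1.42 ± 0.0747 (SE, adjusted p = 7.15e-05). Both were lower in the hippocampus of all 5 animals. Pcdh20, a protocadherin gene, had a difference of 1.75 ± 0.0662 (SE, adjusted p = 3.99e-05) in the other direction. Axon guidance genes were near balance, with 20 higher and 17 lower of 58. A ligand and its receptor subunit differed in opposite directions. Sema3a, the secreted semaphorin, was at 0.90, 1.89, 1.75, 1.94 and 2.05 in cortex and -0.020, -0.16, -0.30, -0.27 and -0.072 in hippocampus, with a difference of -1.87 ± 0.189 (SE, adjusted p = 0.000666). Nrp1, which encodes the semaphorin co-receptor neuropilin, was at 0.43, 1.08, 1.12, 0.98 and 1.39 in cortex and 2.45, 2.65, 2.64, 2.57 and 2.66 in hippocampus, with a difference of 1.59 ± 0.104 (SE, adjusted p = 0.000139). Neither gene overlapped between regions. Slit1, a repellent ligand, had a difference of 1.53 ± 0.0666 (SE, adjusted p = 5.11e-05), and Efna5, an ephrin, had a difference of -1.67 ± 0.0936 (SE, adjusted p = 8.33e-05).

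Vesicle release genes were lower for 19 and higher for 5 of 44. Higher calls numbered 9 without animal 60. Rims3, an active zone gene, had a difference of -1.42 ± 0.084 (SE, adjusted p = 9.81e-05). Stx1a, a membrane fusion protein of the presynaptic terminal, was at 2.97, 3.14, 2.99, 2.75 and 2.92 in cortex and 1.54, 1.67, 1.71, 1.63 and 1.62 in hippocampus, with no overlap. The difference was -1.32 ± 0.0674 (SE, adjusted p = 6.79e-05). Doc2b, a calcium sensor of release, was higher in hippocampus with a difference of 1.1 ± 0.0913 (SE, adjusted p = 0.000327). Wnt and BMP signalling genes were called in both directions, with 11 higher and 13 lower of 54, against 13.6% and 16.5% of all genes. Higher calls numbered 17 without animal 60. Chrd, the BMP antagonist chordin, had a difference of 0.94 ± 0.0543 (SE, adjusted p = 9.22e-05). Dkkl1, a dickkopf-related secreted protein gene, had a difference of -2.3 ± 0.108 (SE, adjusted p = 5.79e-05).

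**Figure D3:**
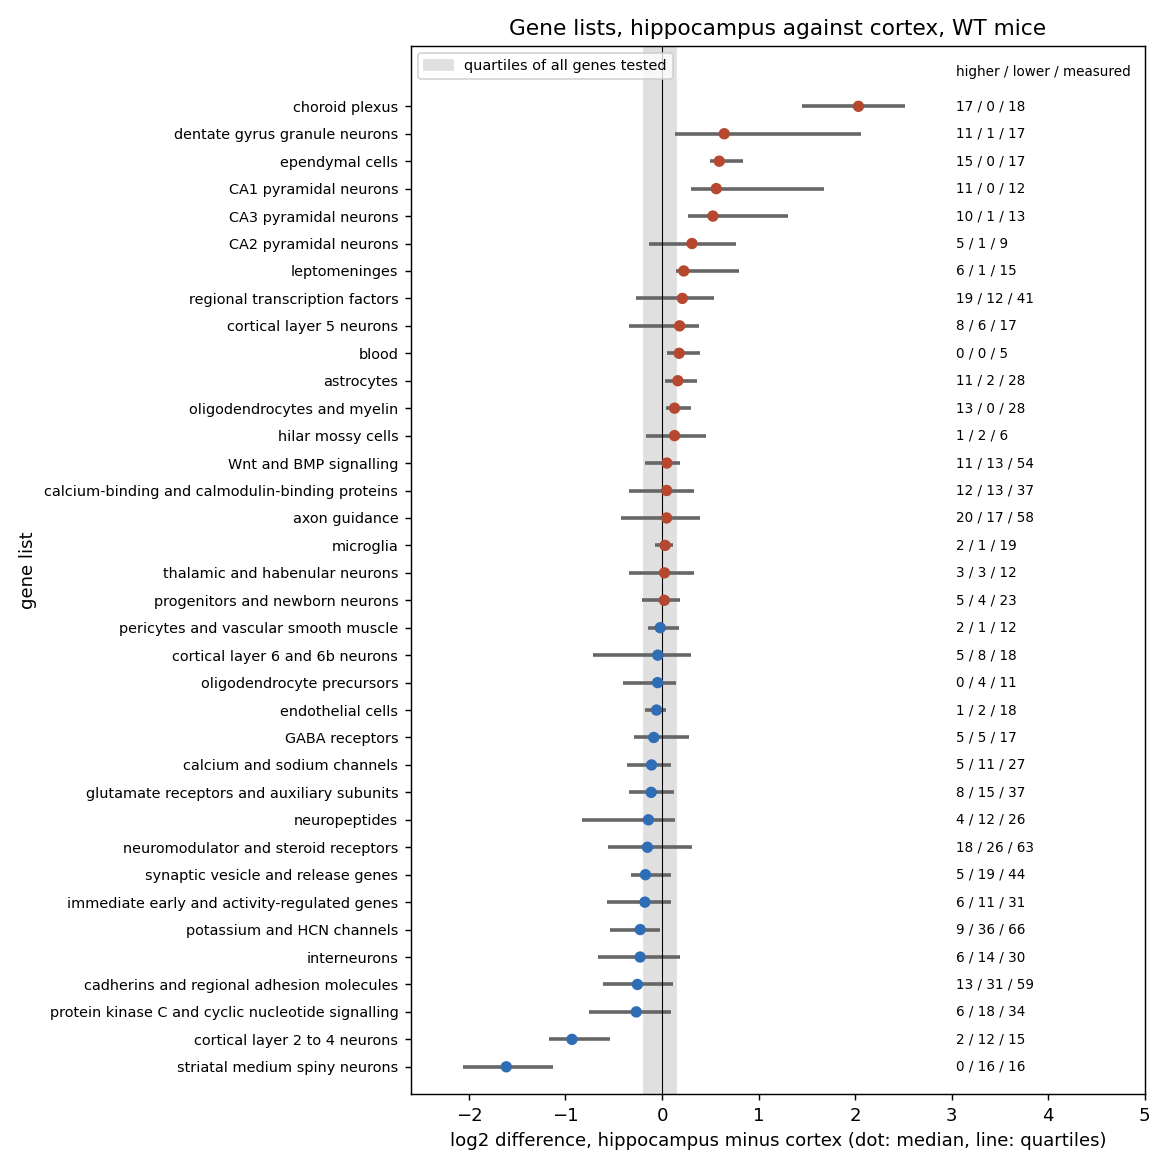
Median (dot) and quartiles (line) of the log2 difference between hippocampus and cortex for the members of 36 gene lists, with the number of members called higher, called lower and measured at the right; the grey band spans the quartiles of all genes tested. Of all genes tested 13.6% were called higher and 16.5% lower. The choroid plexus list lies highest at 2.03 and the striatal list lowest at -1.61; without centring all medians fall by about 0.62, and of the lists to the right of 0 those of choroid plexus and granule neurons alone stay above it.

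Markers of tissue next to the dissected regions differed mostly in 1 direction. The choroid plexus, which secretes cerebrospinal fluid, had 17 of 18 markers higher in hippocampus, 0 lower and a median of 2.03. The mean level of this list was -0.84, -1.23, -0.28, -1.19 and -0.20 in the cortex arrays and 1.39, 1.33, 1.14, 0.91 and 1.18 in the hippocampus arrays. Cortex arrays of animals 65 and 98 stood above the other 3, and no cortex array reached a hippocampus array. Ttr, the thyroxine carrier transthyretin, was at 0.69, 2.05, 4.94, 1.02 and 5.04 in cortex and 6.09, 6.08, 6.02, 5.94 and 6.09 in hippocampus. Its hippocampus levels were nearly equal, while cortex levels spanned a wide range with the same 2 animals on top. The difference was 3.3 ± 0.716 (SE, adjusted p = 0.0141). It was not called without animal 62 (3.11) or without animal 95 (2.89). Kl, the gene of the FGF co-receptor klotho, had a difference of 2.88 ± 0.343 (SE, adjusted p = 0.00132). F5, coagulation factor V, had a difference of 2.75 ± 0.274 (SE, adjusted p = 0.000634). All of these were higher in the hippocampus of each animal. Kcnj13, an apical potassium channel, had a difference of 2.66 ± 0.397 (SE, adjusted p = 0.00331). Sostdc1, a secreted BMP antagonist gene, had a difference of 2.59 ± 0.223 (SE, adjusted p = 0.000365). Choroid plexus markers made up 17 of the 184 genes at least 2-fold higher in hippocampus. The part of choroid plexus tissue in other differences was not tested.

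Ependymal markers were higher for 15 of 17, with 0 lower and a median of 0.59. The list mean was -1.24, -1.45, -1.28, -1.41 and -1.34 in cortex and -0.69, -0.62, -0.63, -0.75 and -0.68 in hippocampus, below the median feature throughout. Foxj1, the master factor of motile cilia, had a difference of 1.12 ± 0.063 (SE, adjusted p = 8.33e-05), and Ak7, an adenylate kinase of cilia, had a difference of 1.2 ± 0.0792 (SE, adjusted p = 0.000143). Leptomeningeal markers were higher for 6 and lower for 1 of 15. Higher calls numbered 10 without animal 60, while lower calls numbered 0 without animal 62 or 95. Dcn, the matrix proteoglycan decorin, had a difference of 2.03 ± 0.205 (SE, adjusted p = 0.000677). Igf2, a growth factor gene of meninges and choroid plexus, had a difference of 1.18 ± 0.135 (SE, adjusted p = 0.00113).

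Markers of striatal medium spiny neurons were lower in hippocampus for 16 of 16, with a median of -1.61. The list mean was 1.92, 1.81, 2.1, 2.16 and 1.53 in the cortex arrays and 0.34, 0.31, 0.28, 0.24 and 0.20 in the hippocampus arrays. The cortex of animal 98 was the lowest of its group and still far above every hippocampus array. Drd2, the D2 dopamine receptor, was at 2.92, 2.52, 2.83, 2.92 and 2.14 in cortex and 0.20, 0.15, -0.15, -0.26 and 0.0020 in hippocampus. The difference was -2.68 ± 0.153 (SE, adjusted p = 8.69e-05). Penk, the enkephalin precursor, was at 4.66, 4.59, 4.87, 5.0 and 4.42 in cortex and 1.93, 2.2, 2.08, 2.1 and 1.94 in hippocampus, and the difference was -2.66 ± 0.0878 (SE, adjusted p = 2.61e-05). Both genes were bright in cortex, and neither overlapped between regions. Rgs9, a striatal G protein regulator, had a difference of -2.26 ± 0.119 (SE, adjusted p = 7.15e-05). Scn4b, a sodium channel beta subunit, had a difference of -2.47 ± 0.13 (SE, adjusted p = 7.15e-05). Of the 205 genes at least 2-fold lower, 12 were striatal markers and 10 cortical neuron markers. How far the striatal markers enter the other differences was not tested. Thalamic and habenular markers were called in both directions, with 3 higher and 3 lower of 12, against 13.6% and 16.5% of all genes. Lower calls numbered 5 without animal 60.

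**Figure D4:**
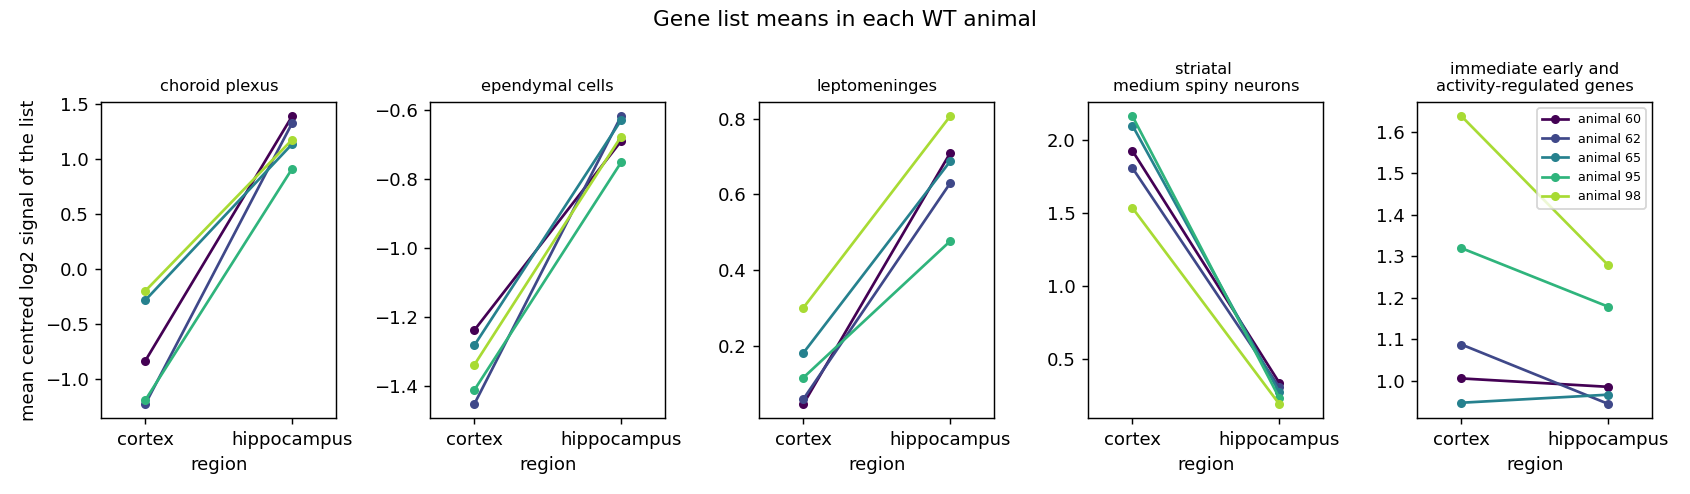
Mean centred log2 signal (vertical axes, each with its own range) of 5 gene lists in the cortex and hippocampus of each WT animal, 1 line per animal. Choroid plexus, ependymal and leptomeningeal means are higher in hippocampus and the striatal mean lower in all 5 animals, while the immediate early gene mean is lower in hippocampus in 4 of 5.

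Interneuron genes were called lower in hippocampus for 14 and higher for 6 of 30, with a median of -0.23. Higher calls numbered 3 without animal 65 or 98. Tac1, the substance P precursor, which striatal neurons also make, had a difference of -1.99 ± 0.193 (SE, adjusted p = 0.00058). Th, tyrosine hydroxylase, had a difference of -1.17 ± 0.229 (SE, adjusted p = 0.00959). Tacr1, the substance P receptor of some interneurons, had a difference of -1.14 ± 0.0864 (SE, adjusted p = 0.000234). On the other side Htr3a, the ionotropic serotonin receptor, had a difference of 1.19 ± 0.115 (SE, adjusted p = 0.000564), and Nos1, neuronal nitric oxide synthase, had a difference of 0.83 ± 0.0991 (SE, adjusted p = 0.00132).

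Astrocyte genes were higher for 11 and lower for 2 of 28. Lower calls numbered 1 without animal 62 and 0 without animal 65, 95 or 98. Gfap, the astrocytic intermediate filament, was at 1.02, 1.4, 1.41, 1.4 and 1.46 in cortex and 2.61, 2.67, 2.69, 2.6 and 2.65 in hippocampus. The cortex of animal 60 was lowest, the regions did not overlap, and the difference was 1.31 ± 0.0738 (SE, adjusted p = 8.43e-05). Hopx, a homeodomain-only gene of astrocytes and radial glia-like stem cells, had a difference of 1.24 ± 0.0599 (SE, adjusted p = 5.97e-05). Agt, angiotensinogen, had a difference of 0.85 ± 0.116 (SE, adjusted p = 0.00235). Oligodendrocyte and myelin genes were higher for 13 and lower for 0 of 28, all by less than 2-fold. Higher calls numbered 7 without animal 62 and 8 without animal 65 and 6 without animal 95 and 5 without animal 98. Gpr37, a receptor of myelinating cells, had a difference of 0.53 ± 0.0521 (SE, adjusted p = 0.000598). Mbp, myelin basic protein, had a difference of 0.27 ± 0.0507 (SE, adjusted p = 0.00815), which was not called when the arrays' spread was scaled (0.18). Of 11 precursor genes 4 were lower and 0 higher, among them Sox6, a Sox family factor with a difference of -0.43 ± 0.0589 (SE, adjusted p = 0.00239). Higher calls numbered 4 without animal 60.

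Microglial and vascular genes were called in both directions, beside 30.1% of all genes called. Whether the share called in these short lists differs from that of all genes was not tested. Of 19 microglial genes 2 were higher and 1 lower, of 18 endothelial genes 1 and 2, and of 12 pericyte and smooth muscle genes 2 and 1. For microglia, higher calls numbered 1 without animal 62 and 0 without animal 65, 95 or 98, while lower calls numbered 4 without animal 60 and 0 without animal 62, 65, 95 or 98. For endothelium, higher calls numbered 2 without animal 60, while lower calls numbered 7 without animal 60 and 0 without animal 62, 65, 95 or 98. For pericytes, higher calls numbered 1 without animal 62, 65, 95 or 98, while lower calls numbered 3 without animal 60 and 0 without animal 62, 65 or 95. Without animal 60 the share of all genes called was 53.8%. The medians of these lists were 0.032, -0.056 and -0.018. Of 5 blood genes 0 were called. Higher calls numbered 2 without animal 60. Ocln, the tight junction protein occludin, had a difference of 0.74 ± 0.0847 (SE, adjusted p = 0.00115), and Acta2, smooth muscle actin, had a difference of 0.58 ± 0.0857 (SE, adjusted p = 0.00312).

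The adult dentate gyrus makes neurons, and genes of progenitors and newborn neurons were called in both directions. Of 23 genes 5 were higher and 4 lower, against 13.6% and 16.5% of all genes, with a median of 0.024. Higher calls numbered 8 without animal 60 and 3 without animal 62, 65, 95 or 98. Neurod1, a factor of maturing granule neurons, was at -0.40, 0.61, 0.49, 0.44 and 0.70 in cortex and 1.1, 1.21, 1.35, 1.63 and 1.46 in hippocampus, with a difference of 0.98 ± 0.132 (SE, adjusted p = 0.00219). Dcx, the microtubule protein doublecortin of migrating neurons, was at 1.84, 2.11, 2.06, 2.28 and 2.15 in cortex and 0.93, 1.16, 1.08, 1.09 and 1.1 in hippocampus, with a difference of -1.01 ± 0.0612 (SE, adjusted p = 0.000107). It was lower in the hippocampus of each animal. Eomes, a factor of intermediate progenitors and of certain mature glutamatergic neurons, was also lower, with a difference of -1.22 ± 0.208 (SE, adjusted p = 0.00561).

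Immediate early and activity-regulated genes were lower for 11 and higher for 6 of 31. The list mean was 1.01, 1.09, 0.95, 1.32 and 1.64 in cortex and 0.99, 0.94, 0.97, 1.18 and 1.28 in hippocampus. Animal 98 had the highest mean in both regions. Homer1, a postsynaptic scaffold gene with an activity-induced short form, had a difference of -0.97 ± 0.0663 (SE, adjusted p = 0.000157). Npas4, a factor induced by neuronal calcium, was at 1.05, 0.83, -0.047, 1.53 and 1.54 in cortex and 0.15, -0.13, -0.37, 0.40 and 0.43 in hippocampus. It was lower in the hippocampus of each animal although the regions' ranges overlapped, and the difference was -0.88 ± 0.122 (SE, adjusted p = 0.00244). Without the animal as a block it was not called. Nr4a3, an orphan nuclear receptor, was higher in hippocampus, with a difference of 1.29 ± 0.147 (SE, adjusted p = 0.00111). Jun, an AP-1 subunit, had a difference of 0.91 ± 0.0767 (SE, adjusted p = 0.000336).

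Each microRNA gene had 1 feature, measured in total RNA, which does not separate the mature microRNA from its precursor or from a host transcript. Of 307 measured, 23 were called higher in hippocampus and 94 lower in WT, against 13.6% and 16.5% of all genes. In Ts1Cje 75 were higher and 70 lower, against 22.8% and 21.4%. Without animal 60 the WT counts were 61 and 115, against 24.5% and 29.3%. The median level of these genes was -1.5 in cortex. Whether the shift of dim genes in animal 60 bears on these counts was not tested. In WT 8 differed by at least 2-fold. These 8 genes and their hosts were chosen after their values were seen. Of the 8, 5 were picked because their host or nearest upstream gene differed more, in the same direction, than that of the other 3. For each of the 5, 1 mature product follows, and any other product of the gene is not shown. The sequences are from RefSeq on assembly GRCm38.p6, 5′ to 3′, with the seed (bases 2 to 8) in capitals.
mmu-miR-568: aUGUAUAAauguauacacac
mmu-miR-204-5p: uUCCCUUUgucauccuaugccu
mmu-miR-592-5p: aUUGUGUCaauaugcgaugaugu
mmu-miR-32-5p: uAUUGCACauuacuaaguugca
mmu-miR-128-3p: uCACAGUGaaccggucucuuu
No seed was shared among these 5 sequences. Mir568 was at 0.039, 0.10, 0.28, 0.38 and 0.44 in cortex and 1.84, 1.81, 1.83, 2.05 and 2.02 in hippocampus, with a difference of 1.67 ± 0.0589 (SE, adjusted p = 3.6e-05). Its nearest upstream coding gene on the same strand was Zbtb20, which was also higher. Mir204 lies inside Trpm3, a cation channel gene of choroid plexus epithelium, and both were higher, Mir204 with a difference of 1.06 ± 0.136 (SE, adjusted p = 0.00177) and Trpm3 with a difference of 1.19 ± 0.155 (SE, adjusted p = 0.00191). Mir592 lies inside Grm8, and its difference of -1.05 ± 0.104 (SE, adjusted p = 0.000632) stood beside that of -1.1 for Grm8. Mir128-1, inside R3hdm1, was at 1.69, 2.69, 2.23, 2.05 and 2.22 in cortex and 0.11, 1.25, 0.78, 0.67 and 0.97 in hippocampus. The difference was -1.42 ± 0.0634 (SE, adjusted p = 5.11e-05), against -0.70 for R3hdm1. Mir32, inside Tmem245, had a difference of -1.15 ± 0.1 (SE, adjusted p = 0.000381), against -0.66 for Tmem245. Over all 92 microRNA genes inside 1 tested coding gene on the same strand, 63 had the sign of their host, and of the 19 called together with it 18 did. A feature inside a host gene can report the host's transcript, so these are not independent measurements. The other 3 microRNA genes past 2-fold were lower in hippocampus. Mir690 (-1.02) lies inside Fgf12, which was called lower by a smaller amount (-0.43). Mir340 (-1.09) lies inside Rnf130, which was not called (-0.043). Mir379 (-1.22) has Dlk1 as its nearest upstream coding gene, which was called in the other direction (0.35). The calls of Fgf12 and Dlk1 were lost without animal 62, 65, 95 or 98, with differences of -0.40, -0.39, -0.39 and -0.40 for Fgf12 and 0.26, 0.38, 0.42 and 0.28 for Dlk1, while Rnf130 was called lower without animal 60 (-0.17).

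The same comparison in the 6 Ts1Cje mice used other animals and other arrays. Here too, region, extraction kit and any normalization made per region cannot be told apart. In Ts1Cje cortex the array of animal 64 had the narrowest spread, an SD of 1.95 against up to 2.22. In these mice 8937 genes (44.2%) were called, or 10006 without animal 64, and 356 (1.76%) differed by at least 2-fold. The direction was the same for all 389 genes past 2-fold in WT, and 388 of them were called. The exception was Chkb, a choline kinase gene with a difference of -1.11 ± 0.336 (SE, adjusted p = 0.0454) in WT and -0.047 in Ts1Cje. Its call in WT was lost without animal 62 (-1.14) or 65 (-1.01), and Chkb was chosen after its values were seen. Genes past 2-fold in both genotypes numbered 314, which is 80.7% of those in WT and 88.2% of those in Ts1Cje. Cabp7 was 2.9 and Exph5 -2.85 in Ts1Cje, close to the WT values of 3.02 and -2.92. Ttr was 2.62 in Ts1Cje. Choroid plexus list means in Ts1Cje were -1.29 to -0.20 in cortex and 0.73 to 1.46 in hippocampus, and the striatal list means were 1.9 to 2.19 and 0.25 to 0.53.

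A test of the difference itself, with 1 hippocampus minus cortex value per animal, called 0 of 20239 genes between genotypes (0%; lowest adjusted p = 0.744, limma). Data were simulated with independent noise of the WT fit's residual spread in every array, and without a shift of dim genes in any animal. In these data the test recovered 21 of 50 genes with a log2 difference of 0.5 and 43 of 50 with 1. Small differences between genotypes can thus be missed. At an unadjusted p of 0.05 the test on the real arrays took 1024 genes, where 1012 would pass with no difference at all. The 5 with the lowest p were Mir1a-2, Olfr1113, Eif4a3l1, Nlrp9b and Cks1brt, with differences between genotypes of 0.39, 0.68, 0.61, 0.58 and 0.50 (Ts1Cje minus WT, log2). Eif4a3l1, a gene related to an RNA helicase of the exon junction complex, was lower in hippocampus in WT (-0.36) and higher in Ts1Cje (0.25), a difference that did not pass the adjustment. Its call in WT was lost without animal 65, 95 or 98 (-0.31, -0.30 and -0.36).

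**Figure D5:**
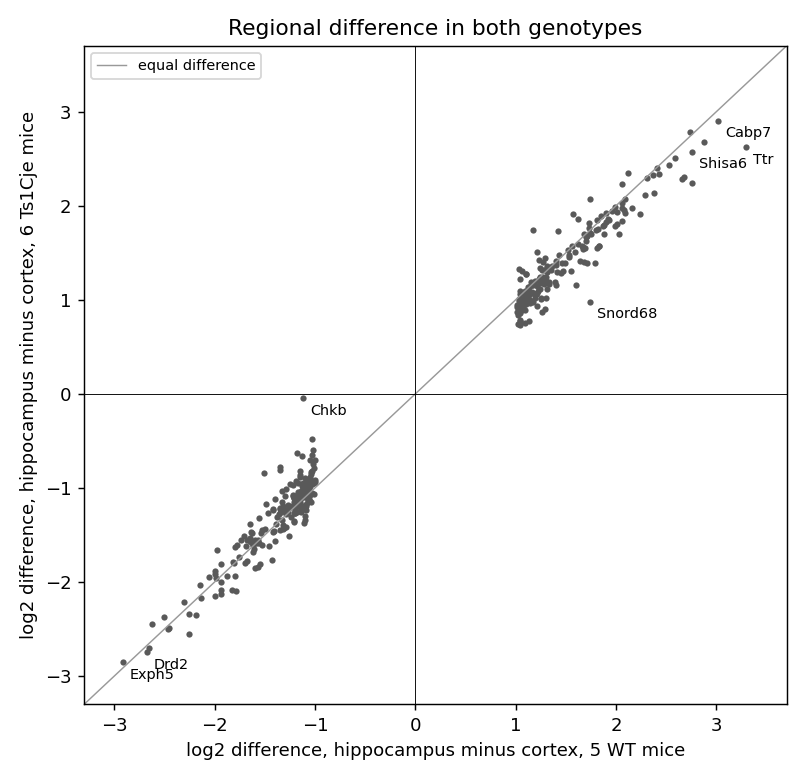
Log2 difference between hippocampus and cortex in the 6 Ts1Cje mice (vertical axis) against that in the 5 WT mice (horizontal axis) for the 389 genes at least 2-fold different in WT, which were chosen on the horizontal values; the grey line marks equal differences. Every gene has the same sign on both axes, and Chkb lies nearest to 0 in Ts1Cje.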

How the data were processed

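Values were the authors' deposited log2 signals, 1 per gene and array, made with RMA per the submitters' processing notes. Its version is not given in the sources used here. All 22 arrays held 21225 features, of which 20239 had 1 gene symbol in the platform table and were tested, and 986 were not named there. Each array was centred on its median over all features. Hippocampus and cortex of each animal were compared with limma 3.58.1 in R 4.3.3, with the animal as a block and Benjamini-Hochberg adjustment, and called means an adjusted p under 0.05. The fit was tested on simulated data.

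Numbers in the titles paired the arrays: deviations from the group means correlated at 0.173 to 0.610 in the 5 WT pairs, each matched best by its own number. For animal 60 the title gives that number and the description 61, which a Ts1Cje animal also has. Both call it WT, as does the genotype label, and the title was used. No 2 arrays were identical. Replicates are separate animals.

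Genes were named by rule: the 12 largest called differences on each side and up to 3 called members per list and side, all with the same sign in all 5 animals, then Prox1, Zbtb20, Tbr1, Fezf2, Rorb, Cux2, Ttr, Drd2, Mbp, Gfap and Dcx always (1 more gene of the rule is not reported here), and the 5 genes with the lowest p between genotypes. This rule gave 174 genes, and the text gives values for 136, of which 18 lie outside it (microRNA genes with their hosts or neighbours, Chkb and 3 small nucleolar RNA genes), as do the genes beside the 2-fold line, Scgn and Trbv4. The 36 lists held 925 genes, 877 of them measured. The comparison, members and lists were chosen with earlier results of these data known. Alternatives covered the block, centring, quantile normalization, variance prior, array weights, dim genes, features, threshold and each animal left out.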

Additional observations from a re-analysis of the deposited data

Results flagged for a closer look

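Among 282 sets of 5 arrays examined, 36 had a highest or lowest array far from the other 4, by Dixon's criterion at a critical value of 0.71. Chance alone gives about 1 in 20 such sets. Animal 60 was the array in 31 of the 36, 24 times in cortex and 7 in hippocampus. All values are centred log2 levels of the array that stood apart.

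In the cortex array of animal 60 Prox1 (-0.084), Coch (0.84), Nr3c2 (0.34), Rbp4 (1.05), Stat4 (-1.01), Gabra5 (3.04), Gabra3 (3.84) and Kcnh5 (2.93) were lowest. So were Dpp10 (2.63), Trpc4 (0.95), Cacnb4 (4.33), Adcyap1 (0.90), Cdh7 (0.88), Sema3a (0.90), Gfap (1.02), Ocln (-0.55), Neurod1 (-0.40), Fgf12 (3.02) and Rnf130 (2.15). In the same array Lct (-0.31), C1ql2 (0.78), Spink8 (-1.28), Olfr1113 (-3.48) and Cks1brt (-0.54) were highest. Its hippocampus array was lowest for Il16 (0.87), Lhx9 (0.043), Nos1 (1.83) and Nr4a3 (1.77) and highest for Sostdc1 (2.45), Th (-0.68) and Olfr1113 (-3.49).

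The other 5 cases were single arrays of other animals. Tspan18 was highest in the cortex of animal 95 (-0.18), and Cpne9 in the cortex of animal 62 (2.53). In animal 98 Lamp5 was highest in hippocampus (1.71), while Gabrd (1.97) and Scn4b (1.8) were lowest in cortex. In none of these 5 genes did the regions overlap, against 21.8% of all genes tested without overlap. The 5 had been named for called differences on the same arrays.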

How the results depend on the processing

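The fit without the animal as a replicate block called 2101 genes higher in hippocampus and 2357 lower in WT, with 388 past 2-fold, and 5733 genes in Ts1Cje. With the animal as a random block the WT counts were 3144, 3678 and 388. Of the genes with values in the text, Npas4, Cks1brt, Fgf12 and Dlk1 alone lost their call without the block. Without centring 19024 genes were called in WT, 283 higher and 18741 lower, and 2087 were past 2-fold, 65 higher and 2022 lower. In Ts1Cje 19082 were then called and 1824 were past 2-fold. Array weights gave 11454 calls, 5243 higher and 6211 lower. At an adjusted p of 0.01 the calls were 3115, 1395 higher and 1720 lower, and 5636 in Ts1Cje. Leaving out 1 animal gave 3712 to 10889 calls in WT, 1674 to 4960 higher and 2038 to 5929 lower. The other scalings, priors and filters kept these counts within 1.5 times, and the difference between genotypes stayed at 0 calls in each setting, also without animals 60 and 64, a setting chosen after seeing the data. Without centring the difference turned negative for Gpr37 (-0.086), Mbp (-0.35), Acta2 (-0.034), Dlk1 (-0.27) and Mir1a-2 (-0.59), quantile normalization turned Mir1a-2 (-0.14), and scaling the spread turned Olfr1113 (0.044). Rnf130, not called, ranged from -0.17 to 0.021 with 1 animal left out. Pcp4 was not called with the spread scaled, nor Chkb with the 75th percentile, and Dlk1 was called under neither, nor with quantile normalization or a random block. The cause of these changes was not tested beyond the settings themselves. The number of arrays limits the precision.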

Other observations

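Small nucleolar RNA genes, which encode guides for the modification of ribosomal RNA and lie mostly in introns of other genes, were called higher in hippocampus for 21 and lower for 1 of 47 in WT, against 13.6% and 16.5% of all genes. Their median difference was 0.37 on the log2 scale. This family was picked after its values were seen, and no test was made on it. Snord73b was at -0.46, 1.09, 0.26, 1.21 and 1.05 in cortex and 1.5, 2.57, 2.1, 2.28 and 2.58 in hippocampus, with a difference of 1.57 ± 0.129 (SE, adjusted p = 0.000318). Snord49b had a difference of 1.53 ± 0.101 (SE, adjusted p = 0.000143) and Snord32a a difference of 0.92 ± 0.0683 (SE, adjusted p = 0.00022). Both were higher in the hippocampus of each animal. In Ts1Cje 22 were higher and 2 lower, against 22.8% and 21.4% of all genes. Without animal 60 the WT counts were 24 and 2, against 24.5% and 29.3%. Extraction kits differed between the regions, and kit and region cannot be told apart here.

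Receptor genes of the olfactory and vomeronasal epithelia were dim in both regions, with median centred levels of -3.07 and -3.18 for olfactory receptors in cortex and hippocampus. In WT 198 of 1098 olfactory receptor genes were called lower in hippocampus and 96 higher, against 16.5% and 13.6% of all genes. In Ts1Cje 149 were lower and 327 higher, against 21.4% and 22.8% of all genes. The shares called, 26.8% and 43.4%, were near those of all genes, 30.1% and 44.2%. Without animal 60, 258 were lower and 270 higher in WT, and 48.1% were called, against 53.8% of all genes. Whether the shift of dim genes in animal 60 bears on these counts was not tested. Vomeronasal receptor genes gave 36 lower and 17 higher of 196 in WT, and 22 and 62 in Ts1Cje, and 44 and 50 in WT without animal 60. Their shares called were 27%, 42.9% and 48%, against 30.1%, 44.2% and 53.8% of all genes. The difference between genotypes was not tested for these families. Genes of cytosolic ribosomal proteins were called for 8 higher and 2 lower of 39, with a median of 0.10, and their 25.6% called is near the 30.1% of all genes. These families too were picked after their values were seen.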
